A study of Homo sapiens with 27 samples.

Results

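Gene expression was compared between 22Rv1 and LNCaP95 cells, both hormone-insensitive human prostate cancer cell lines, in the libraries that carried only the control hairpin. The comparison took the 3 libraries labelled 22Rv1 CTRL sh and the 3 labelled LNCaP95 CTRL sh, 6 of the 27 libraries of the series, and no library with a CPSF1 hairpin. It covered the 12576 of 20268 protein-coding gene symbols that lay above 2 CPM (gene counts scaled to the library total) in all 3 libraries of at least 1 line. The question was which baseline each line gives to the CPSF1 knockdown experiments of the study.

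22Rv1 is an established line that was grown out of a prostate cancer xenograft which relapsed after castration of its host. LNCaP95 is a subline of LNCaP that grows without added androgen, and LNCaP and 22Rv1 derive from different patients. Cells of both lines were infected with lentivirus carrying the non-silencing pGIPZ hairpin (CTRL sh), selected in puromycin and harvested 72 h after 500000 cells were seeded per well. 22Rv1 cells were kept in RPMI 1640 with 10% FBS and 2 µg/mL puromycin, and LNCaP95 cells in the phenol red-free form of that medium with 10% FBS. The labels do not tie a puromycin dose to LNCaP95 by name. Each line was grown in its own medium only, so that line and medium cannot be told apart in any result below.

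Androgens drive the luminal differentiation genes of the prostate, such as the secreted kallikrein proteases, through a nuclear hormone signal that needs pioneer factors and coactivators on DNA. Castration-resistant prostate cancer cells keep this programme running in several ways, among them the synthesis of androgens within the cell and a change in the enzymes that remove them. Counts were made per gene over all exons, so that splice variants of a gene are summed in 1 value here.

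The 6 libraries held 9599566 to 14479943 counts on genes, of which mitochondrial genes took 1.62 to 2.09%. Replicates of a line correlated at 0.9945 or more (Pearson, log2 CPM over 10632 genes) and libraries of different lines at 0.7957 to 0.8034. Between replicates, chi-square divided by its degrees of freedom is 1 for counting error alone. It was 1.38 to 1.87 in 22Rv1 and 2.91 to 5.36 in LNCaP95, so that replicates differed by more than counting error. The common biological coefficient of variation, the spread beyond counting error that edgeR estimates, was 4.09%. How independently the replicates were grown cannot be read from these values. The luminal keratins KRT8 and KRT18 were present in both lines at 438 against 838 CPM and 309.7 against 391 CPM. Each of the 5 immune and 3 endothelial marker genes in the table lay under 1 CPM in both lines. CPM are scaled by TMM, each mean stands with its SD over 3 libraries (n = 3 per line), and log2 fold changes are 22Rv1 minus LNCaP95 with their standard error (SE). P-values are from the quasi-likelihood F-test of edgeR, and were adjusted over all 12576 genes (Benjamini-Hochberg); a gene passed at an adjusted p under 0.05.

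The lines differed across most of the transcriptome. Of the 12576 genes tested, 10814 (86.0%) passed the threshold, 5602 higher in 22Rv1 (44.5%) and 5212 lower (41.4%), and the libraries of the lines did not overlap for 86.5%. The difference was over 2-fold for 4535 genes (36.1%), 2448 of them higher (19.5%) and 2087 lower in 22Rv1 (16.6%). With most genes past the threshold, the size of each difference is given beside the call. Among the 10632 genes above 2 CPM in all 6 libraries, 8901 passed (83.7%) and 2693 of these (25.3%) differed by over 2-fold, 1203 higher in 22Rv1 (11.3%) and 1490 lower (14.0%). The median log2 fold change of these 10632 genes was -0.02 and the median of its absolute value was 0.54. A further 1299 genes were above 2 CPM in all libraries of 22Rv1 but not of LNCaP95, and 645 the reverse. Such genes reached the test through the line where they are high and had to differ, so they are described by their levels and enter none of the counts over lists below. In RNA from whole cultures, fewer expressing cells and less RNA per cell cannot be told apart.

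**Figure D1:**
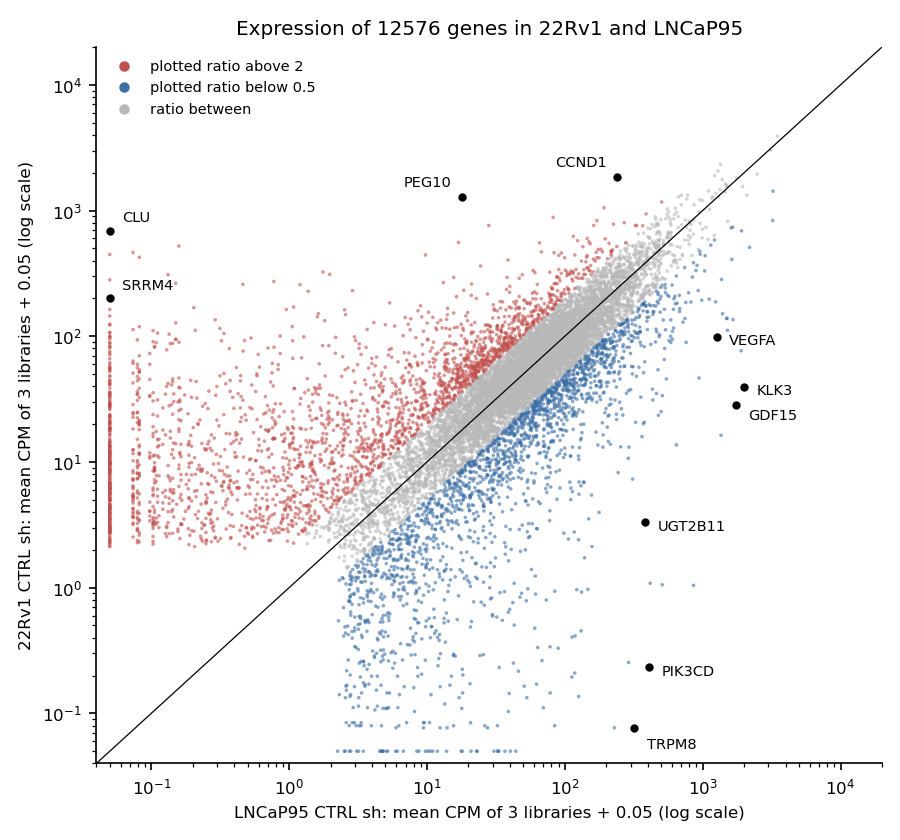
Mean expression of the 12576 tested genes in 22Rv1 (vertical axis) against LNCaP95 (horizontal axis), each the mean CPM of 3 CTRL sh libraries plus 0.05 on a log scale, with the diagonal marking equal levels and colours marking a plotted ratio above 2 or below 0.5. KLK3 and GDF15 lie below the diagonal and PEG10 above it, while CLU and SRRM4 sit at the left edge with 0 counts in LNCaP95 and PIK3CD and TRPM8 near the lower edge.

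Among genes that both lines expressed, the 12 with the largest differences in each direction lay over 8-fold apart, as did 109 genes higher (1.03%) and 121 lower in 22Rv1 (1.14%) in all. The 12 of each direction were taken from genes that passed and whose libraries did not overlap between lines. A passing p-value and separate libraries were thus set by the choice and describe these genes only. PEG10, a retrotransposon-derived imprinted gene, was counted at 1271, 1279 and 1297 CPM in the 22Rv1 libraries and 19.7, 17.8 and 15.9 CPM in the LNCaP95 libraries. All 22Rv1 libraries lay far above all LNCaP95 libraries, with a log2 fold change of 6.16 (SE 0.0606, edgeR adjusted p = 4.38e-25). The only larger one in this direction belonged to RP11-1055B8.7, an Ensembl gene model on the plus strand of chr17:79373540-79433357 (GRCh37), with 231 ± 5.30 CPM in 22Rv1 and 2.83 ± 0.550 CPM in LNCaP95. The next 10 ranged from 5.87 down to 4.78 on the log2 scale. They were SPTBN1, a spectrin of the membrane skeleton (149 against 2.52 CPM), PTPRB, a receptor phosphatase known from endothelium (443 against 9.71 CPM), MAPK8IP2, a JNK scaffold (184 against 5.31 CPM), and MDK, the heparin-binding growth factor midkine (556 against 16.9 CPM). TFAP2A, a transcription factor of ectoderm and neural crest (128 against 4.07 CPM), ROBO1, a Slit receptor (92.4 against 2.99 CPM), and TNNT1, a skeletal muscle troponin (68.8 against 2.40 CPM), belonged to them as well, with CCDC74A, PBLD and FAM46A.

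In the other direction, GDF15, a stress-induced secreted factor of the TGF-beta superfamily, was counted at 29.1, 28.6 and 27.0 CPM in the 22Rv1 libraries and 1769, 1651 and 1794 CPM in the LNCaP95 libraries. Every LNCaP95 library thus lay far above every 22Rv1 library, with a log2 fold change of -5.94, SE 0.0573 (edgeR adjusted p = 3.81e-25). TENM1, a teneurin of neuronal adhesion on the X chromosome, had 1358 ± 57.2 CPM in LNCaP95 and 16.3 ± 2.44 CPM in 22Rv1. LNCaP CTRL sh cells, the parental line in the same series, had 18.8 CPM of TENM1 and 1.90 CPM of LOX, the lysyl oxidase that cross-links collagen, for which 22Rv1 had 7.25 ± 0.733 and LNCaP95 310.1 ± 16.0 CPM. Among the other genes of this side were UGT2B11, KLK3 and ABCC4, taken up below, SOCS2, a feedback inhibitor of cytokine signalling (2.39 against 106 CPM), ASS1, which makes argininosuccinate in the urea cycle (3.48 against 149 CPM), STC1, a secreted glycoprotein (2.72 against 117 CPM), TMEM52 (2.67 against 98.4 CPM) and LAMA3, a laminin chain (8.18 against 244 CPM).

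Genes that 1 line expressed and the other did not were more numerous on the 22Rv1 side. By a rule of over 5 CPM in all 3 libraries of 1 line and at most 3 counts in each library of the other, 395 genes were on only in 22Rv1 and 79 only in LNCaP95. The median level in the expressing line was 15.0 and 17.6 CPM, respectively. Of the 395, 177 had 0 counts in all LNCaP95 libraries, where 3 counts correspond to 0.255 CPM on average. In LNCaP CTRL sh cells, 289 of the 395 lay under 0.5 CPM and 38 above 5 CPM, whereas of the 79 genes on only in LNCaP95, 15 lay under 0.5 CPM and 41 above 5 CPM in LNCaP. These counts have no test, and intervals and floors for single genes cover counting error only.

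CLU, which encodes the secreted chaperone clusterin, had the highest CPM of the first group, with 684, 704 and 689.8 CPM in the 22Rv1 libraries and no count in LNCaP95, at least 2720-fold higher against the floor of 3 counts per library. LNCaP CTRL sh cells had 12.4 CPM of CLU. SRRM4, a splicing factor of neuronal microexons, was counted at 207, 195 and 197 CPM in 22Rv1 and at 0 in LNCaP95 (at least 784-fold higher). HGF, the ligand of the MET receptor, had 194 ± 6.08 CPM in 22Rv1 and 0 counts in LNCaP95 (at least 762-fold higher), and MET itself had 26.4 ± 1.27 CPM in 22Rv1 and 0.488 ± 0.162 CPM in LNCaP95. GUCY1A2, a subunit of soluble guanylate cyclase (446 CPM), STOM, the membrane protein stomatin (163 CPM), and PLA2G3, a secreted phospholipase (145 CPM), were likewise without a count in LNCaP95. The liver protein gene ALB (522 CPM), the G-protein regulator RGS2 (464 CPM), the ephrin receptor EPHA3 (425 CPM), the tetraspanin TSPAN8 (264 CPM) and the trypsin inhibitor SPINK1 (128 CPM) had 1 to 4 counts in the 3 LNCaP95 libraries together.

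Ion channels and a lipid kinase stood out on the LNCaP95 side. PIK3CD, the catalytic subunit p110-delta of PI3-kinase, had 436, 395 and 401 CPM in the LNCaP95 libraries and 6 counts in all 22Rv1 libraries together, a ratio of 2300-fold, with an exact 95% counting interval of 1060 to 6260. TRPM8, the cold-sensing channel that androgens induce in prostate, had 328, 325 and 306 CPM in LNCaP95 and 1 count in 22Rv1, a ratio of 10700-fold, with an exact 95% counting interval of 1920 to 423000. The calcium channel TRPV6 (118 ± 9.48 CPM), the receptor phosphatase PTPRM (290.1 ± 13.3 CPM), the peroxidasin PXDN (229 ± 20.0 CPM) and the sialyltransferase ST6GALNAC1 (126 ± 6.40 CPM) had 1 to 7 counts in 22Rv1. The homeobox genes BARX2 (84.3 CPM) and IRX4 (62.3 CPM), GNAL, NLRP2, the neuroligin NLGN4X and the cancer-testis gene PAGE1 (112 CPM) completed the 12 with the highest CPM.

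The cofactors of the androgen response differed in both directions. The pioneer factor FOXA1 was counted at 474, 471 and 469 CPM in the 22Rv1 libraries and 318, 325 and 324 CPM in the LNCaP95 libraries. All 22Rv1 libraries were above all LNCaP95 libraries, with a log2 fold change of 0.55, SE 0.0391 (edgeR adjusted p = 2.82e-11), and the prostate homeobox factor HOXB13 was higher by a log2 fold change of 0.21. GATA2, a zinc-finger factor of prostate enhancers, was lower at 179 ± 2.47 CPM in 22Rv1 and 409 ± 54.7 CPM in LNCaP95. The p160 coactivators differed among themselves. NCOA1 was lower in 22Rv1, at 52.2, 49.0 and 51.0 CPM against 199.8, 206 and 211 CPM (log2 fold change -2.02, SE 0.0506), whereas NCOA2 (1.61, SE 0.0533) and NCOA3 (1.34, SE 0.0677) were higher. Of 11 cofactor genes, 6 were higher and 5 lower in 22Rv1, with a median log2 fold change of 0.21. Over all 10632 genes above 2 CPM in all 6 libraries, 40.6% were higher and 43.1% lower, with a median of -0.02, and the counts for each list below stand against these.

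The androgen-induced genes split, and those with the largest differences were low in 22Rv1. KLK3, which encodes prostate-specific antigen, was counted at 40.7, 36.4 and 41.5 CPM in the 22Rv1 libraries and 1984, 1979 and 2002 CPM in the LNCaP95 libraries (log2 fold change -5.65, SE 0.0544, edgeR adjusted p = 3.81e-25). The serine protease gene TMPRSS2 showed 44.5, 48.2 and 46.7 CPM in 22Rv1 against 981, 907 and 934 CPM in LNCaP95, and the exporter ABCC4 15.3, 12.8 and 12.8 against 642, 659 and 633 CPM. None of these libraries overlapped between lines, and LNCaP CTRL sh cells had 1110, 618 and 471 CPM of the 3 genes. NDRG1 (log2 fold change -3.76), the potassium channel KCNMA1 (-2.62), MAF (-2.42), the acyl-CoA synthetase ACSL3 (-2.01), the kallikrein KLK2 (-1.71) and CENPN (-1.55) were lower by over 2-fold as well. Other genes of the list were higher in 22Rv1. ZBTB10 reached 832 ± 23.7 CPM in 22Rv1 and 171 ± 12.8 CPM in LNCaP95, and the elongation factor ELL2 465 ± 12.2 CPM in 22Rv1 and 169 ± 5.72 CPM in LNCaP95. FKBP5, a hormone-induced cochaperone, was higher by a log2 fold change of 0.28 (581 against 479 CPM), and KLK4 stood at 250.1 against 156 CPM (0.68). Of the 21 members above 2 CPM in all 6 libraries, 7 were higher and 14 lower, 2 and 9 of them by over 2-fold, and their median log2 fold change was -0.87.

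Enzymes that make or remove androgens differed by line and, within families, by member. Some members of the UGT2B family glucuronidate androgens for excretion, and the substrates of each listed member were not examined here. UGT2B11 was counted at 2.41, 3.04 and 4.32 CPM in the 22Rv1 libraries and 375, 399.5 and 374 CPM in the LNCaP95 libraries, the largest difference among genes above 2 CPM in all 6 libraries (log2 fold change -6.91, SE 0.0907). UGT2B17 had 0.963, 1.07 and 0.721 CPM in 22Rv1 and 132, 161 and 148 CPM in LNCaP95, and UGT2B28 0.587 ± 0.216 and 38.8 ± 2.82 CPM. UGT2B15 was lower in 22Rv1 by less than 2-fold (85.2 against 151 CPM), while UGT2B10 (14.8 against 4.45 CPM) and UGT2B4 (5.48 against 0.634 CPM) were higher. The 3 members above 2 CPM in all 6 libraries were UGT2B11, UGT2B15 and UGT2B10. Members of this family resemble each other in sequence, some of them closely. The handling of reads that match several of them was not given in the sources used here, so that the division of counts among them is uncertain.

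Among the other steroid-converting enzymes, the aldo-keto reductases of the AKR1C cluster were expressed in 22Rv1. AKR1C3, which reduces androstenedione to testosterone, had 56.0, 63.4 and 63.0 CPM in 22Rv1 and 0.927, 0.615 and 0.573 CPM in LNCaP95. AKR1C2 (40.9 ± 0.518 against 0.485 ± 0.355 CPM) and AKR1C1 (15.1 ± 0.539 against 0.401 ± 0.264 CPM) followed the same order, with the same caution about reads shared between copies. STS, which releases steroids from their sulfates, and HSD17B11, a 17-beta-hydroxysteroid dehydrogenase, were also higher in 22Rv1 (9.68 against 1.97 CPM and 87.1 against 15.9 CPM). The 5-alpha-reductase genes SRD5A1 and SRD5A3 were lower in 22Rv1. SRD5A1 had 27.0 ± 1.42 CPM in 22Rv1 and 59.0 ± 0.732 CPM in LNCaP95, and SRD5A3 65.9 ± 0.825 CPM in 22Rv1 and 183 ± 10.4 CPM in LNCaP95. CYB5A, the cytochrome b5 that assists CYP17A1, was lower at 57.5 against 271 CPM, and the sulfotransferase SULT2B1 was at 0.374 against 12.3 CPM. Of the 7 enzymes above 2 CPM in all 6 libraries, 3 were higher and 4 lower, with a median log2 fold change of -0.11.

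**Figure D2:**
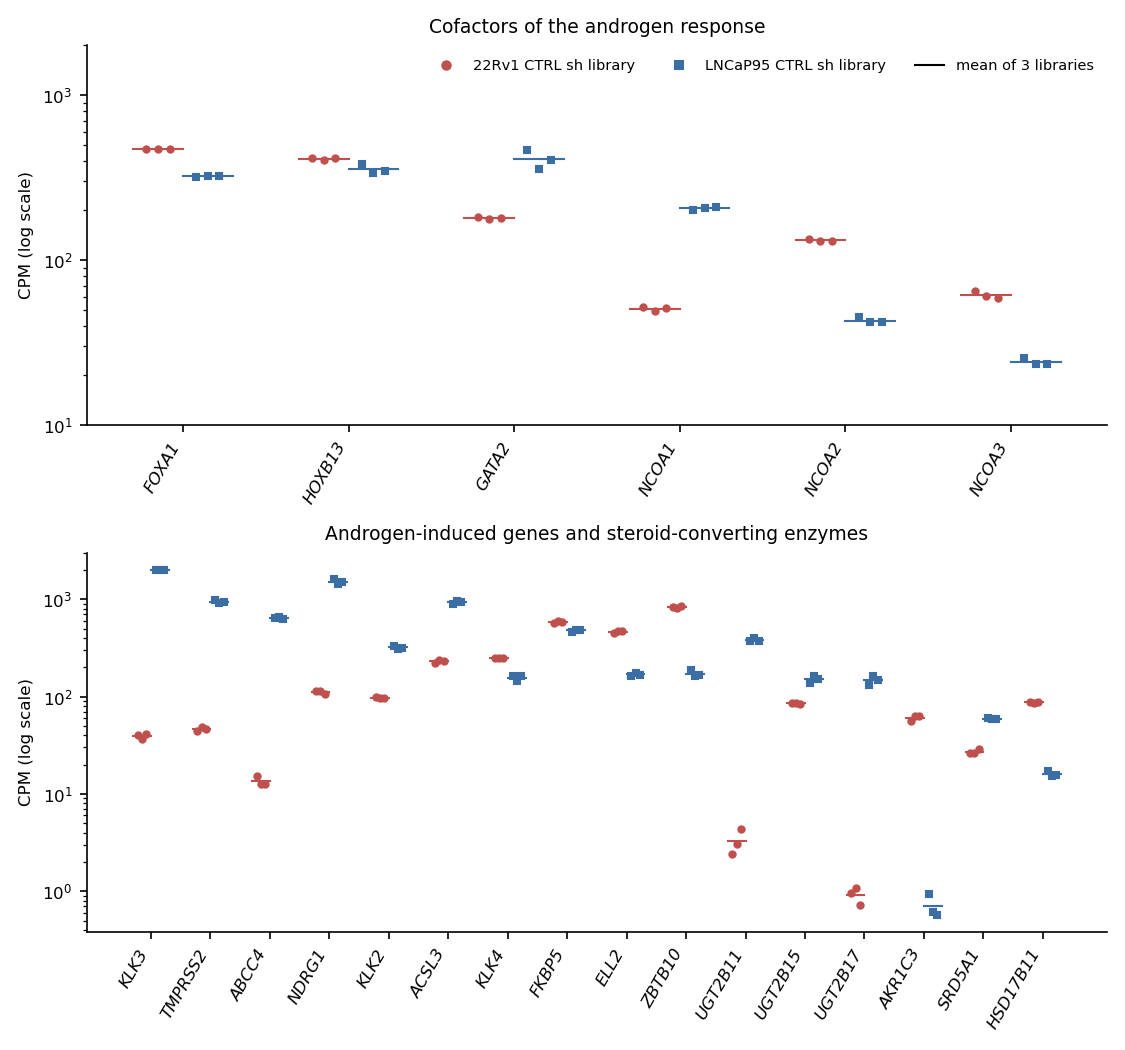
CPM (log scale) of cofactors of the androgen response (upper panel) and of androgen-induced genes and steroid-converting enzymes (lower panel), with 1 point per CTRL sh library (circles 22Rv1, squares LNCaP95) and a line at the mean of 3 libraries. NCOA1, KLK3, TMPRSS2, ABCC4 and UGT2B11 are lower in 22Rv1, and ZBTB10, ELL2 and AKR1C3 are higher there.

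Most genes of glucose breakdown were lower in 22Rv1. The study followed glycolysis after CPSF1 knockdown, and it described the glycolytic output of 22Rv1 as very low beside that of LNCaP and LNCaP95. Here the mRNA of the enzymes is given for the control cells, and its relation to that output was not tested. All 15 glycolytic enzyme genes were above 2 CPM in all 6 libraries. Of these, 12 were lower in 22Rv1, 8 by over 2-fold, and 1 was higher, with a median log2 fold change of -1.01. The first committed step showed the widest gap within a family. PFKP, the platelet phosphofructokinase, was counted at 24.9, 25.3 and 25.1 CPM in the 22Rv1 libraries and 571, 462 and 467 CPM in the LNCaP95 libraries (log2 fold change -4.32, SE 0.0791, edgeR adjusted p = 2.94e-21). The liver and muscle isoforms PFKL (268 ± 2.60 CPM in 22Rv1 and 289 ± 34.8 CPM in LNCaP95) and PFKM (299 ± 3.44 CPM in 22Rv1 and 315 ± 7.60 CPM in LNCaP95) did not pass the test, with edgeR adjusted p-values of 0.0852 and 0.0831, and the libraries of the lines overlapped for PFKL. Both passed, at log2 fold changes of -0.20 and -0.10, when LNCaP95 replicate 2 was left out (edgeR adjusted p = 0.000403 and 0.017). With LNCaP95 replicate 1 left out instead, the log2 fold changes were -0.01 and -0.06, and neither passed (edgeR adjusted p = 0.775 and 0.185). On the TPM scale, which divides counts by exon length so that genes can be set side by side, the levels of PFKP, PFKL and PFKM stood at 18.1, 269.7 and 168 TPM in 22Rv1 and at 356, 288 and 176 TPM in LNCaP95. PFKP was thus the highest of the 3 in LNCaP95 and the lowest in 22Rv1. HK2, the inducible hexokinase, had 193, 193 and 175 CPM in 22Rv1 and 876, 783 and 806 CPM in LNCaP95. GPI (log2 fold change -1.99), the aldolases ALDOA (-1.47) and ALDOC (-2.73), PGK1 (-2.10), PGAM1 (-1.01) and ENO1 (-1.95) were lower by over 2-fold. GAPDH and TPI1 differed little, with log2 fold changes of -0.35 and -0.14. ENO2, the neuronal enolase, was the single enzyme higher in 22Rv1 (239 against 176 CPM, log2 fold change 0.44).

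Transport and fate of glucose and lactate followed different members in each line. The glucose transporter SLC2A1 was lower in 22Rv1 (108 ± 7.56 CPM in 22Rv1 and 352 ± 40.3 CPM in LNCaP95), and SLC2A3 was near 0 there (10.4 ± 1.30 CPM in LNCaP95 and 1 count in the 22Rv1 libraries together). Lactate dehydrogenase subunits ran in opposite directions. LDHA was lower in 22Rv1 at 697, 747 and 742 CPM against 1592, 1632 and 1600 CPM, and LDHB higher at 733, 755 and 800.1 CPM against 320.3, 330.4 and 344 CPM. On the TPM scale, the level of LDHB (1307) exceeded that of LDHA (686) in 22Rv1. The level of LDHA (1497) exceeded that of LDHB (562) in LNCaP95. In 22Rv1 the CPM of LDHA and LDHB overlapped, so their TPM order there rests on the exon lengths used, which sum all annotated exons of a gene. Monocarboxylate transporters, which carry lactate, differed likewise, with SLC16A1 lower (113 against 398 CPM) and SLC16A3 and SLC16A7 higher in 22Rv1 (37.5 against 1.51 CPM and 15.9 against 0.0530 CPM). The pyruvate dehydrogenase kinases restrain entry of pyruvate into mitochondria. PDK1 (log2 fold change -3.28) and PDK3 (-2.97) were lower and PDK2 (1.28) higher in 22Rv1, and PDK4 had 60.7 ± 2.74 CPM in 22Rv1 against 1 count in the LNCaP95 libraries together. PFKFB3 and PFKFB4, which make the activator of phosphofructokinase, were lower (log2 fold change -2.25 and -2.90). Of the 14 members of this list above 2 CPM in all 6 libraries, 3 were higher and 9 lower, with a median log2 fold change of -1.42.

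Hypoxia-inducible factor (HIF) activates many of these enzymes, and most of the HIF targets listed here were also low in 22Rv1. The list is a selection and leaves out SLC16A3, which was higher in 22Rv1 as given above. VEGFA, the angiogenic growth factor, was counted at 105, 98.2 and 93.0 CPM in the 22Rv1 libraries and 1319, 1197 and 1275 CPM in the LNCaP95 libraries (log2 fold change -3.67, SE 0.0535). CA9, the carbonic anhydrase that is often used to mark hypoxia, had 53 ± 4.36 CPM in LNCaP95 and 3 counts in the 22Rv1 libraries together, a ratio of 595-fold, with an exact 95% counting interval of 203 to 2890. Of the 11 HIF target genes above 2 CPM in all 6 libraries, 10 were lower in 22Rv1, each by over 2-fold, and CA12 was higher (log2 fold change 0.44). Their median log2 fold change was -2.63. The list shares NDRG1 with the androgen-induced genes and PDK1, SLC2A1 and EGLN3 with the other metabolic lists. Both alpha subunits were lower, to different extents. HIF1A was lower in 22Rv1 at 176 ± 1.35 CPM in 22Rv1 and 304 ± 11.4 CPM in LNCaP95, and EPAS1, which encodes HIF-2 alpha, at 3.10 ± 0.208 CPM in 22Rv1 and 49.1 ± 3.67 CPM in LNCaP95 (log2 fold change -3.99, SE 0.111). Of the 8 genes of the HIF pathway, 7 were lower and 1 higher (median log2 fold change -0.72). Of the oxygen sensors, EGLN3 was lower (log2 fold change -4.30), EGLN1 and EGLN2 were lower by less than 2-fold, and HIF1AN was higher (0.82). In LNCaP CTRL sh cells, VEGFA stood at 298, HK2 at 158, PFKP at 277 and EPAS1 at 1.64 CPM.

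Genes of the mitochondrial genome and of the TCA cycle did not share this direction. Of the 13 protein genes of the mitochondrial genome, 6 were higher and 1 lower in 22Rv1, with a median log2 fold change of 0.07. The libraries of the lines did not overlap for only 2 of these 13, against 86.5% of all genes tested. MT-ND5 differed the most at 2057 ± 156 CPM in 22Rv1 and 1290 ± 96.7 CPM in LNCaP95 (0.67). Of 21 genes of pyruvate entry and the TCA cycle, 12 were higher and 7 lower, with a median of 0.19. IDH3A, a subunit of isocitrate dehydrogenase, was over 2-fold higher in 22Rv1 (log2 fold change 1.04), and PDHA1 of the pyruvate dehydrogenase complex was the lowest (-0.85).

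DNA replication genes were higher in 22Rv1. Of 26 genes of replication and the G1/S step above 2 CPM in all 6 libraries, 24 were higher, 18 by over 2-fold, and 1 was lower, with a median log2 fold change of 1.46. Each of the 6 subunits of the MCM2-7 helicase was over 2-fold higher. MCM4 was counted at 466, 464 and 479 CPM in the 22Rv1 libraries and 64.5, 65.5 and 72.7 CPM in the LNCaP95 libraries (log2 fold change 2.80, SE 0.0502), and MCM5 at 243, 239 and 226 against 39.1, 34.7 and 39.3 CPM. PCNA, the polymerase clamp (log2 fold change 1.52), the licensing factors CDC6 (1.42) and CDT1 (1.55), and E2F1 (1.5) followed the same order. CDKN1B, an inhibitor of cyclin-dependent kinases, was the member that was lower in 22Rv1 (log2 fold change -0.20).

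The D-type cyclins, which open G1, differed in both directions. CCND1 was counted at 1779, 1819 and 1899 CPM in 22Rv1 and 256, 231 and 234 CPM in LNCaP95 (log2 fold change 2.93, SE 0.0479). CCND2, in contrast, had 40.6, 39.6 and 40.5 CPM in LNCaP95 and no count in 22Rv1, at least 148-fold lower there, and 0.120 CPM in LNCaP CTRL sh cells. CCND3 was higher in 22Rv1 by less than 2-fold (50.7 against 30.9 CPM). CDK6 (34.8 against 5.64 CPM), CDK4 (365 against 154 CPM) and the inhibitor CDKN2A (53.2 against 9.85 CPM) were higher in 22Rv1, as was RB1 by less than 2-fold (log2 fold change 0.85). CCNE2 was higher (log2 fold change 2.62), whereas CCNE1 (13.2 ± 0.860 CPM in 22Rv1 and 12.2 ± 1.66 CPM in LNCaP95) did not pass the test (edgeR adjusted p = 0.267).

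Genes of mitosis were divided. Of 20 genes of G2/M, 7 were higher and 11 lower in 22Rv1, with a median log2 fold change of -0.17. The mitotic kinase CDK1 (172, 169 and 185 against 370.1, 392 and 395 CPM) and CDC20, an activator of the anaphase-promoting complex (201, 202 and 188 against 517, 439.7 and 512 CPM), were lower in 22Rv1, and the spindle motor KIF11 was higher (log2 fold change 1.5). The proliferation marker MKI67 stood at 214 ± 12.7 CPM in 22Rv1 and 126 ± 4.47 CPM in LNCaP95, while TOP2A (508 ± 8.22 CPM in 22Rv1 and 480.0 ± 6.27 CPM in LNCaP95) did not pass the test (edgeR adjusted p = 0.053) and was past the threshold under 6 of the alternative settings (log2 fold change 0.08 to 0.14).

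Most of the listed genes of stress response, growth arrest and apoptosis were lower in 22Rv1. Of 23 members above 2 CPM in all 6 libraries, 18 were lower, 11 by over 2-fold, and 2 were higher, with a median log2 fold change of -1.0. GDF15, described above, differed the most. CDKN1A, the p21 inhibitor of the cell cycle, had 106, 96.2 and 103 CPM in 22Rv1 and 299, 286 and 318 CPM in LNCaP95. SESN2 (log2 fold change -2.42), the death receptors FAS (-2.13) and TNFRSF10B (-1.62), PHLDA3 (-1.82) and BTG2 (-1.73) were also lower. The pro-apoptotic genes BAX (68.8 ± 2.93 CPM in 22Rv1 and 29.4 ± 2.59 CPM in LNCaP95) and BBC3 (43.0 ± 3.87 CPM in 22Rv1 and 26.8 ± 3.23 CPM in LNCaP95) were higher in 22Rv1. MDM2, a ubiquitin ligase, was lower by less than 2-fold (log2 fold change -0.38).

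**Figure D3:**
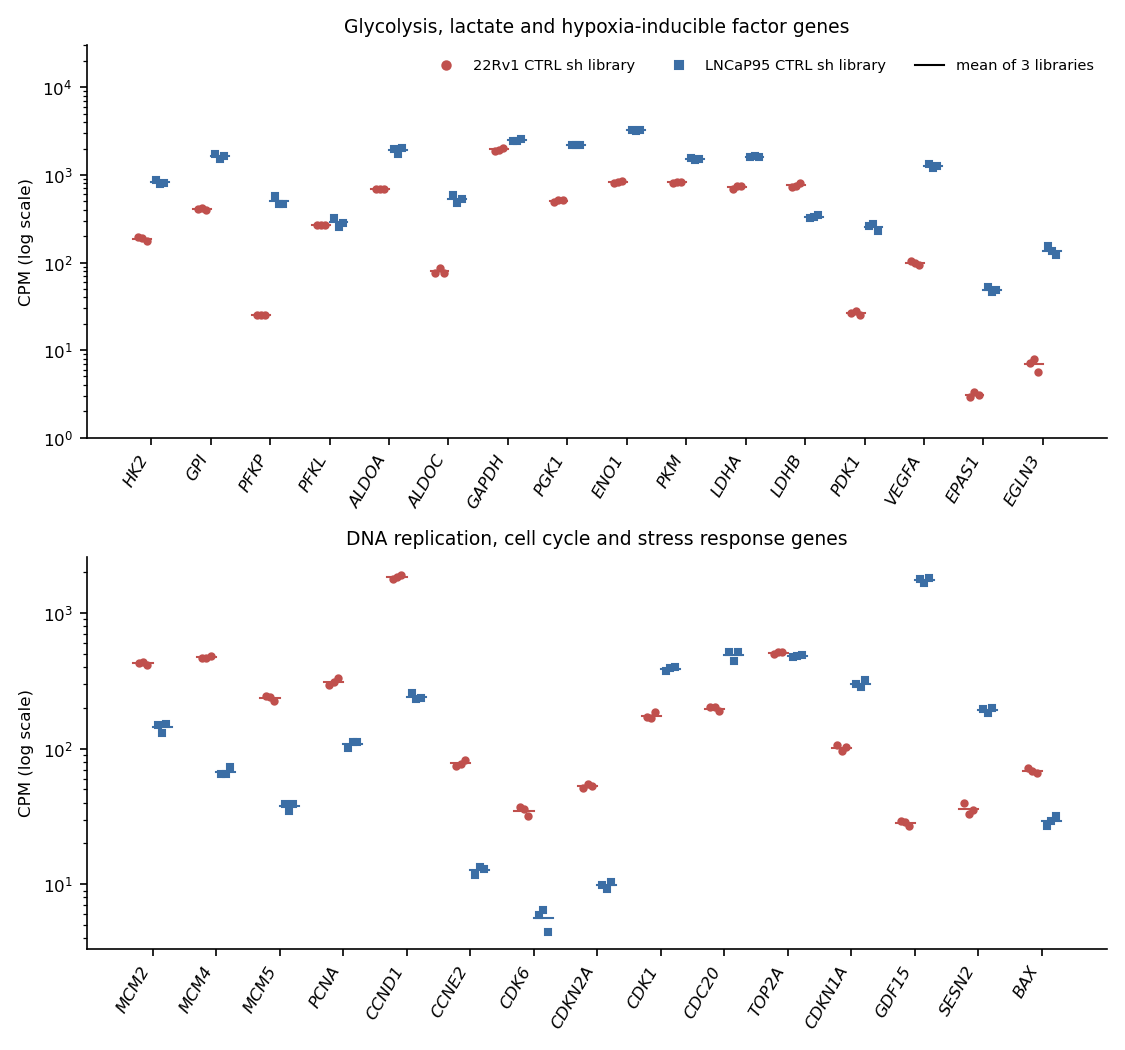
CPM (log scale) of genes of glycolysis, lactate and HIF (upper panel) and of replication, cell cycle and stress response (lower panel), with 1 point per CTRL sh library (circles 22Rv1, squares LNCaP95) and a line at the mean of 3 libraries. Squares lie above circles for all genes of the upper panel except LDHB, where they lie below, and PFKL, where the libraries overlap, while the first 8 genes of the lower panel are higher in 22Rv1.

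Cleavage and polyadenylation factors, the machinery to which CPSF1 belongs, differed moderately. All 20 were above 2 CPM in all 6 libraries, of which 11 were higher and 8 lower in 22Rv1, with a median log2 fold change of 0.28, and 2 differed by over 2-fold. CPSF1 was counted at 184, 177 and 178 CPM in the 22Rv1 libraries and 126, 94.9 and 114 CPM in the LNCaP95 libraries (log2 fold change 0.68, SE 0.0681, edgeR adjusted p = 6.43e-09). The 2 over 2-fold were CSTF3 (86.8 ± 1.94 CPM in 22Rv1 and 40.8 ± 5.80 CPM in LNCaP95), a scaffold of the CstF complex, and CPSF2 (141 ± 5.94 CPM in 22Rv1 and 70.0 ± 4.94 CPM in LNCaP95), the pseudonuclease partner of CPSF3. CPSF6 (log2 fold change 0.97) and NUDT21 (0.73), the CFIm pair that binds upstream UGUA motifs, were higher in 22Rv1, as were SYMPK (0.94) and PABPN1 (0.97). Members of CFIIm, PCF11 (log2 fold change -0.95) and CLP1 (-0.59), were lower, together with CSTF1 (-0.85) and FIP1L1 (-0.51). PAPOLG (30.3 ± 3.15 CPM in 22Rv1 and 28.4 ± 1.04 CPM in LNCaP95) did not pass.

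Neuroendocrine markers differed gene by gene. SYP, synaptophysin of secretory vesicles, was counted at 77.3, 71.1 and 70.9 CPM in the 22Rv1 libraries and 1.85, 2.20 and 2.29 CPM in the LNCaP95 libraries. CHGB, a granin of dense-core vesicles, had 34.2 ± 0.811 CPM in 22Rv1 and no count in LNCaP95 (at least 134-fold higher), and CHGA 6.00 ± 0.339 CPM and no count (at least 23.5-fold higher). SCG3, another granin-type protein, stood at 54.0 ± 1.39 CPM in 22Rv1 and SNAP25, a component of vesicle fusion, at 20.4 ± 1.10 CPM, each with 1 count in the LNCaP95 libraries together. Of the 19 listed genes, 3 were above 2 CPM in all 6 libraries, PEG10, ENO2 and DDC, and all were higher in 22Rv1. The Notch ligand DLL3 ran the other way, at 1.48 against 13.8 CPM. Of the transcription factors on the list, NEUROD1 had 0.0298 CPM in 22Rv1 and 0 CPM in LNCaP95, INSM1 0.115 and 0.0556 CPM and FOXA2 0.163 and 0 CPM. The adhesion molecule NCAM1 had 0 and 0.0823 CPM.

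Luminal and mesenchymal markers varied gene by gene. Of 10 luminal genes above 2 CPM in all 6 libraries, 2 were higher and 8 lower in 22Rv1, with a median log2 fold change of -0.63. KRT19 was higher (192 against 51.3 CPM), and E-cadherin CDH1 was lower (408 against 685 CPM). N-cadherin CDH2 had 17.1 ± 0.883 CPM in 22Rv1 and no count in LNCaP95, and so did the transcription factor TWIST1 (11.7 ± 0.274 CPM). SNAI1 ran the other way at 0.383 against 11.3 CPM, and fibronectin FN1 (log2 fold change -2.67), collagen COL1A1 (-2.48) and vimentin VIM (-1.17) were lower in 22Rv1. Of the 5 mesenchymal genes above 2 CPM in all 6 libraries, 4 were lower and SNAI2 did not pass (12.2 against 10.8 CPM). SNAI2 passed without LNCaP95 replicate 2 (log2 fold change 0.28, edgeR adjusted p = 0.0313) but not without LNCaP95 replicate 1 (0.10, edgeR adjusted p = 0.459). Of the basal markers, the integrin ITGA6 was lower (6.80 against 138 CPM) and DST was higher (85.3 against 43.4 CPM).

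Of 39 homeobox genes of the HOX clusters, 6 were above 2 CPM in all 6 libraries, 5 of them higher and HOXB9 lower in 22Rv1, with a median log2 fold change of 0.46 and 1 over 2-fold higher. HOXC10 (18.5 ± 2.00 CPM), HOXB3 (14.8 ± 1.52 CPM), HOXB5 (12.7 ± 1.19 CPM) and HOXA5 (11.3 ± 0.480 CPM) had no count in LNCaP95. LNCaP CTRL sh cells had 3.24, 2.68, 0.863 and 3.80 CPM of these 4 genes. Of the ETS factors, ETV1 (48.6, 42.4 and 46.2 against 520.1, 581 and 536 CPM) and the epithelial members EHF (log2 fold change -2.40) and ELF3 (-1.75) were lower in 22Rv1. ETV4 (log2 fold change 2.17), ELF4 (1.51), ERF (1.27) and SPDEF (1.03) were higher, so that 9 of 18 were higher, 6 were lower and the median was 0.17.

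Growth factor signalling genes differed member by member. In the PI3-kinase list, 10 of 20 genes above 2 CPM in all 6 libraries were higher in 22Rv1 and 6 lower (median 0.15). Catalytic subunits differed in both directions, with PIK3CA higher in 22Rv1 (40.5 against 14.4 CPM) and PIK3CD in LNCaP95 as given above. The insulin-like growth factor receptor IGF1R was lower in 22Rv1 (49.8, 51.5 and 52.5 against 409.8, 362 and 348 CPM), while the adaptor IRS2 (log2 fold change 1.69) and the binding protein IGFBP3 (1.91) were higher. Among receptors of the ERBB, FGF and MET families, FGFR3 was higher in 22Rv1 (122, 126 and 122 against 4.85, 5.10 and 4.87 CPM), EGFR was lower (476 against 953 CPM), FGFR2 had 6.69 ± 0.228 CPM in LNCaP95 and no count in 22Rv1, and ERBB2 did not pass (121 ± 4.47 CPM in 22Rv1 and 123 ± 7.67 CPM in LNCaP95, edgeR adjusted p = 0.675). Of 6 such receptors above 2 CPM in all 6 libraries, 3 were higher and 2 lower. In the WNT list, LGR5 (34.2 ± 2.93 CPM) and the antagonist DKK1 (32.7 ± 2.42 CPM) were counted in 22Rv1 only, and the receptor FZD4 was lower in 22Rv1 (log2 fold change -3.46). The general WNT target AXIN2 did not pass (5.61 against 4.75 CPM), and 5 of 14 genes of the list were higher and 4 lower. Of 9 integrins, 4 were higher, ITGA1 (log2 fold change 3.20), ITGA3 (2.06), ITGB5 (1.76) and ITGA2 (1.11), and 4 were lower.

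The HLA class I genes HLA-B and HLA-C were lower in 22Rv1. HLA-B was counted at 8.83, 8.58 and 10.2 CPM in the 22Rv1 libraries and 78.9, 73.3 and 73.6 CPM in the LNCaP95 libraries (log2 fold change -3.04, SE 0.0799), and HLA-C at 40.9, 40.3 and 39.7 against 179, 160.5 and 168 CPM. No library of 1 line overlapped with the other line for these genes, and B2M, the light chain of these molecules, was lower by less than 2-fold (log2 fold change -0.62). HLA genes are highly variable and resemble each other, so that the counts of single members are uncertain. Of 9 genes of the antigen presentation list above 2 CPM in all 6 libraries, 6 were lower and 2 higher. Interferon genes were balanced in number, with 9 of 22 higher, 9 lower and a median of 0.04, but 4 were over 2-fold lower and 1 over 2-fold higher. STAT3 (60.4 against 222 CPM), BST2 (3.95 against 22.9 CPM) and IFITM3 (23.8 against 118 CPM) were lower in 22Rv1, and the RNA sensor IFIH1 was higher (log2 fold change 1.13).

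Cancer-testis antigens, which are germline genes that tumours re-express, formed different sets. MAGEA4 had 306, 310.4 and 310.2 CPM in the 22Rv1 libraries against 3 counts in LNCaP95, and CTAG2 (106 ± 0.648 CPM), CTAG1A (87.7 ± 3.32 CPM) and SSX3 (52.6 ± 2.35 CPM) were likewise near 0 there. In LNCaP95, PAGE1 and MAGEA10 (18.0 ± 1.43 CPM) were the counterparts, with 5 and 6 counts in 22Rv1. The 6 members above 2 CPM in all 6 libraries were PRAME, MAGEA1, MAGEA2, MAGEA3, MAGEA6 and MAGEA12, of which 2 were higher and 4 lower in 22Rv1. Copies within these families share sequence, so single members are uncertain.

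Detoxification and lipid genes also differed. The NRF2 list held NFE2L2, the gene of NRF2 itself, and KEAP1, its inhibitor, beside NRF2 targets. Of its 14 genes above 2 CPM in all 6 libraries, 10 were lower in 22Rv1, 7 by over 2-fold, and 4 higher (median -0.90). NQO1 was at 31.4, 32.0 and 31.1 against 208, 211 and 227 CPM and HMOX1, heme oxygenase, at 5.46, 4.91 and 4.12 against 56.8, 47.9 and 51.8 CPM. AKR1C1, a list member above 2 CPM in 22Rv1 only, ran the other way, as given above. Glutathione transferase GSTM3 was lower (10.7 against 289 CPM) and GSTO2 higher in 22Rv1 (68.2 against 4.26 CPM), and GSTP1 stood at 0.0878 and 0.0238 CPM. Of 10 transferases above 2 CPM in all 6 libraries, 5 were higher and 4 lower. In lipid synthesis, 15 of 24 genes were higher and 9 lower (median 0.35). The cholesterol enzymes MVD (log2 fold change 1.77), HMGCS1 (1.43), LSS (1.33) and MVK (1.20) were over 2-fold higher in 22Rv1. Fatty acid enzymes ran both ways, with FASN lower (1445, 1434 and 1398 against 3701, 2645 and 3375 CPM), the desaturase FADS2 lower (log2 fold change -3.43) and the elongase ELOVL6 higher (232 against 18.4 CPM). In the polyamine list, SAT1, SMS, SMOX and AMD1 were over 2-fold lower and PAOX was higher, so that 6 of 10 were lower and 3 higher. Metallothionein MT1E had 15.4 ± 1.11 CPM in 22Rv1 and no count in LNCaP95, and 2 of 3 metallothioneins expressed in both lines were lower. Of 7 mismatch repair genes, 4 were higher, with EXO1 (log2 fold change 1.42) over 2-fold, and 3 were lower, with MLH3 over 2-fold (-1.01).

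**Figure D4:**
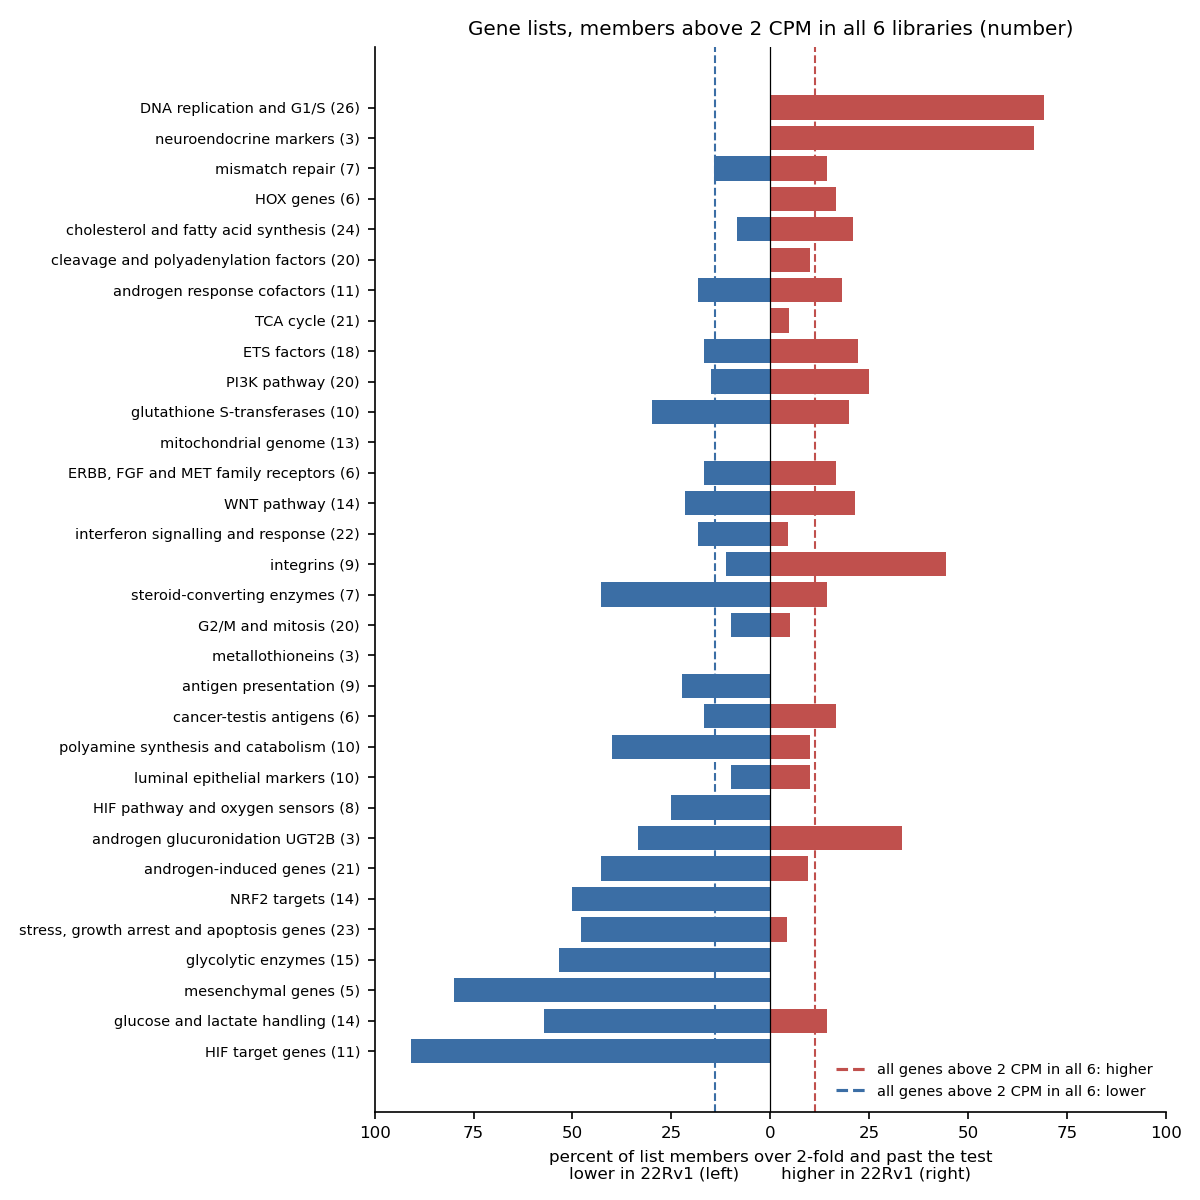
Percent of the members of each gene list that passed the test and differed by over 2-fold, lower in 22Rv1 to the left and higher to the right, for lists with at least 3 members above 2 CPM in all 6 libraries (number in brackets, lists ordered by median log2 fold change). Dashed lines give the same share over all 10632 such genes, 14.0% lower and 11.3% higher; HIF targets (10 of 11 lower) and replication genes (18 of 26 higher) lie at the ends.

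Differences were also uneven along the genome. Among genes above 2 CPM in all 6 libraries, 61.3% on chromosome 8 and 58.8% on chromosome 12 were higher in 22Rv1, against 40.6% over all. Median log2 fold changes on these chromosomes were 0.37 and 0.31 above that of all genes. On chromosomes X, 17 and 1, the medians were -0.35, -0.28 and -0.26 relative to all genes, and 58.4, 59.7 and 55.1% of genes were lower in 22Rv1, against 43.1% over all. In bins of 10 Mb with at least 10 such genes, 39 of 276 (14.1%) had a median over 0.5 from that of all genes, 17 above and 22 below. In the first 10 Mb of chromosome 1, where ENO1 lies, 65 of 81 genes were lower and 9 higher. In the 2 bins of chromosome 2 from 120 to 130 Mb and 150 to 160 Mb, 19 of 21 and 12 of 14 genes were lower and 0 higher. At 140 to 150 Mb of chromosome 8, the bin that holds CPSF1, 52 of 66 genes were higher and 8 lower. At 70 to 80 Mb of chromosome 13, 12 of 15 were higher and 1 lower, and in the first 10 Mb of the X chromosome 11 of 16 were higher and 4 lower. Genes of a bin share their chromosome and are not independent, and no test was made.

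**Figure D5:**
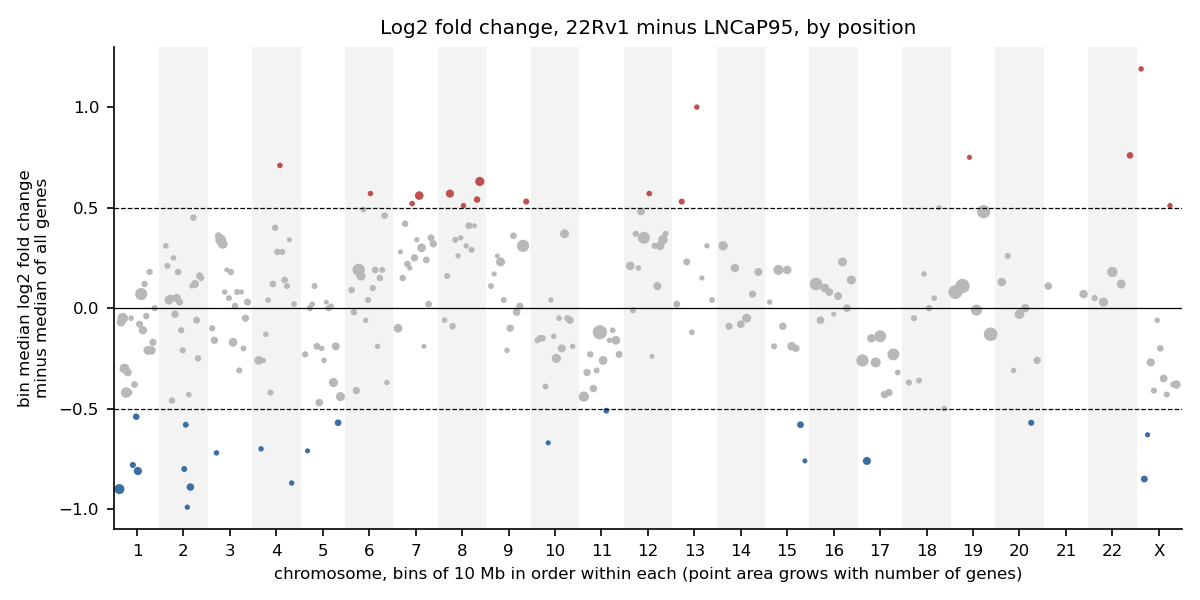
Median log2 fold change (22Rv1 minus LNCaP95) of each 10 Mb bin minus the median of all genes, for the 276 bins with at least 10 genes above 2 CPM in all 6 libraries, placed in order within each chromosome with point area growing with the number of genes. The 17 coloured bins above the upper dashed line at 0.5 and the 22 below the lower one at -0.5 are spread over many chromosomes, with those of the first 10 Mb of chromosome 1 (-0.90) and of the X chromosome (1.19) among the farthest.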

How the data were processed

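RNA-seq libraries (TruSeq Stranded mRNA) were made from LNCaP, LNCaP95 and 22Rv1 cells with CTRL sh or 1 of 2 CPSF1 hairpins, 3 each. The authors deposited raw counts per protein-coding gene over exons, made with HISAT2 2.1.0 on hg19 and reverse-stranded featureCounts on the Ensembl GRCh37 annotation, with exon lengths. Subread 2.0.3 is given in the submitters' processing notes, and another version in the study's methods. Handling of multi-mapping and duplicate reads was not given in the sources used here.

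The 6 libraries were fitted alone, since the study tested each line separately, with the quasi-likelihood F-test of edgeR 4.0.16 (R 4.3.3), TMM scaling and Benjamini-Hochberg adjustment at 0.05, over genes above 2 CPM in all 3 libraries of at least 1 line. TPM were computed from counts and exon lengths. Named genes were the 12 with the largest log2 fold change in each direction among genes above 2 CPM in all 6 libraries whose lines did not overlap, the 12 with the highest CPM among genes on in 1 line only, and list members, of which those described were picked after their values were seen. Some genes that meet these rules are not reported here and were left out of the lists. Members and lists were chosen with earlier results of these data known. The study calls the libraries biological replicates, and p-values measure the spread among 3 per line.

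Depth was 9599566 to 14479943 counts, where 3 counts per library were 0.255 CPM in LNCaP95 and 0.273 CPM in 22Rv1 on average. In a simulated 22Rv1 against LNCaP95 comparison of 12195 genes, 43 of 50 genes changed by 1.5-fold and 50 of 50 at each of 2-, 4- and 8-fold were recovered. There, 15 of 208 calls (7.21%) were false. Only 200 genes were changed in the simulation, whereas 86.0% of the genes tested passed in the data. The simulated shares therefore do not give the error rates of the real comparison. Alternatives were RLE or no scaling, DESeq2 1.42.0, the newer edgeR fit, other filters, all 9 CTRL sh libraries, a replicate block, a test against a 1.5-fold change, other on and off limits, 5 Mb bins and leaving out each library. Libraries with CPSF1 hairpins were not used.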

Additional observations from a re-analysis of the deposited data

How the results depend on the processing

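Against a 1.5-fold change (glmTreat), 3226 genes were higher and 2935 lower in 22Rv1. With only genes above 2 CPM in all 6 libraries fitted, 1240 were over 2-fold higher, since fewer genes were tested. Genes on in 22Rv1 alone numbered 603 with on above 2 CPM, 256 with on above 10 CPM and 177 with off at 0 counts. Genes on in LNCaP95 alone numbered 146 with on above 2 CPM, 22 with off at 0 counts and 146 with off at up to 10 counts. Leaving out 1 library at a time gave 5449 to 5599 genes higher, 5066 to 5287 lower, 2434 to 2470 over 2-fold higher, 2065 to 2133 over 2-fold lower, 404 to 420 on in 22Rv1 alone, 81 to 93 on in LNCaP95 alone, 14 to 16 of 32 lists with a median above 0 (16 with all libraries) and 13.0 to 13.8% of 10 Mb bins beyond 0.5. Counts of genes on in 1 line alone can only stay or rise when a library is left out, because the rule binds every library. Their ranges therefore do not measure stability. With library size alone, 5921 genes were higher and 4920 lower, as the median log2 fold change moved from 0.03 to 0.09.

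The numbers of the replicates did not pair the libraries (correlations of deviations 0.14, -0.05 and 0.04 for equal numbers), and with the replicate block 5623 genes were higher and 5229 lower, 2448 and 2081 of them by over 2-fold. Of 260 gene values named, 6 changed their call or direction in a setting that gave them a value. In 75 pairs of gene and setting there was no value because the gene was filtered out, and the test against a 1.5-fold change was run for the counts alone. ERBB2, which did not pass, turned to 0.036 with library size alone and ranged from -0.062 to 0.031 when libraries were left out, the last without LNCaP95 replicate 1. PFKL (-0.20), PFKM (-0.10) and SNAI2 (0.28) passed without LNCaP95 replicate 2, PFKL and PFKM also without a filter, and PFKL with the block. Without LNCaP95 replicate 1, PFKL, PFKM and SNAI2 were at -0.01, -0.06 and 0.10, and none passed. TOP2A passed under 6 settings, and TPI1 did not pass with library size alone. The cause of these changes was not tested. At this depth, genes near the floor of 3 counts give bounds or wide intervals in place of fold changes.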

Other observations

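Further members of the gene lists were above 2 CPM in 1 line only, and their values are given here as descriptions. The WNT ligand WNT5A was at 1.60 ± 0.344 CPM in 22Rv1 and 18.2 ± 1.04 CPM in LNCaP95 and its receptor ROR1 at 1.5 ± 0.0954 CPM in 22Rv1 and 22.4 ± 0.834 CPM in LNCaP95. WNT7B, which both lines expressed, was lower in 22Rv1 too (log2 fold change -3.11, SE 0.146). Integrin subunits differed in both directions, with ITGB8 at 12.5 ± 0.660 CPM and ITGA4 at 3.08 ± 0.610 CPM in 22Rv1 against 3 and 0 counts in the LNCaP95 libraries together, and ITGB4 at 1.59 ± 0.412 CPM in 22Rv1 and 12.5 ± 2.89 CPM in LNCaP95. The receptor ERBB4 had 9.85 ± 0.359 CPM in 22Rv1 and 1 count in LNCaP95, a ratio of 352-fold, with an exact 95% counting interval of 62.8 to 14000. The ETS factor ELF5 stood at 14.5 ± 1.14 CPM in 22Rv1 and 0.854 ± 0.162 CPM in LNCaP95, and the simple-epithelium keratin KRT7 at 9.39 ± 1.72 CPM in 22Rv1 and 0.109 ± 0.0296 CPM in LNCaP95.

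Among glutathione transferases, GSTM4 had 34.5 ± 3.29 CPM in 22Rv1 and 1 count in LNCaP95, and GSTA1 had 1.03 ± 0.623 CPM in 22Rv1 and 42.8 ± 3.85 CPM in LNCaP95. Reads can be shared among members of the GSTM and GSTA clusters, so the assignment to single members is uncertain. ANKRD37, a hypoxia-induced gene, had 1.68 ± 0.594 CPM in 22Rv1 and 139 ± 19.3 CPM in LNCaP95, and the extracellular matrix gene SPARC 7.07 ± 0.5 CPM in LNCaP95 and 1 count in 22Rv1. The glucose transporter SLC2A10 had 13.9 ± 0.986 CPM in 22Rv1 and 5 counts in LNCaP95. Interferon-linked IFI6 (0.241 ± 0.103 CPM in 22Rv1 and 7.62 ± 0.954 CPM in LNCaP95) and NLRC5, an activator of HLA class I genes (0.356 ± 0.0462 CPM in 22Rv1 and 4.80 ± 0.651 CPM in LNCaP95), were among the list members above 2 CPM in LNCaP95 only.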
